A study of Mus musculus with 28 samples.

Results

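Atg7, Kalrn, Ubr3 and Sh2d3c had the highest ratios of pulled-down to input RNA in mouse cortex among 465 genes that were called higher after the pulldown in every phase, had a moderate level or more, did not overlap between the fractions and had a settled symbol. They are 4 of 43629 genes counted and 4 of 16580 with enough counts to be tested. They were chosen from these data: the rule asked for a high ratio in healthy mice, in the acute phase and in the chronic phase of an autoimmune disease. The ratios are therefore given as a description, with no test.

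RNA came from cerebral cortex of Glt25d2 BacTRAP mice, in which a tag on ribosomes is made under the control of Glt25d2 (now Colgalt2), a gene that marks projection neurons of layer 5. Pulling down tagged ribosomes gave the immunoprecipitated fraction (IP), and the cortical RNA before the pulldown was the input. The disease groups had been immunised with the myelin peptide MOG35-55, which sets off experimental autoimmune encephalomyelitis (EAE), used as a mouse model for multiple sclerosis, and the other group was healthy. There were 6 groups and 28 libraries: IP and input from healthy mice (5 libraries each), from the acute phase at day 15 (5 each) and from the chronic phase at day 30 (4 each). All groups carried the same genotype. No library came from mice without the tag or from a pulldown without antibody among those analysed here. RNA carried over without the tag therefore cannot be told apart from RNA captured by it. The markers below only describe which RNA was enriched. Whether each library of a group had its own mouse is not stated in the labels, so a p-value here sets a difference against library-to-library spread, part or all of which may be technical.

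The 4 proteins belong to different pathways. Atg7 is the activating enzyme of autophagy: it charges the ubiquitin-like proteins Atg12 and LC3, which are then attached to other molecules as the membrane around cellular cargo grows. Kalrn encodes kalirin, a guanine nucleotide exchange factor that switches on small GTPases such as Rac1 and is known in cortex for shaping dendritic spines and excitatory synapses. Ubr3 is a ubiquitin ligase of the UBR box family, whose better known members recognise the N-terminal residues of proteins and mark them for degradation. Sh2d3c (also called Shep1) is an adaptor of the NSP family that couples receptors to the Cas scaffold proteins.

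In the GRCm38 genome with the Ensembl release 79 annotation, all 4 are protein-coding genes counted over their exons. Atg7 (ENSMUSG00000030314) lies on the plus strand of chr6:114643097-114860614, with 28 merged exons and 5273 exon bases. Kalrn (ENSMUSG00000061751) lies on the minus strand of chr16:33974258-34573532, with 68 merged exons and 18660 exon bases. Ubr3 (ENSMUSG00000044308) lies on the plus strand of chr2:69897246-70024013, with 39 merged exons and 9719 exon bases. Sh2d3c (ENSMUSG00000059013) lies on the plus strand of chr2:32721055-32755512, with 18 merged exons and 5233 exon bases. Only Sh2d3c shared exon bases with another gene, 174 bases or 3.33% of its exons, with the antisense gene 6330409D20Rik. Counting ignored strand, so reads over those bases cannot be told apart. The antisense gene stood at 0 to 7.03 CPM (counts scaled to library size) in IP and 1.35 to 3.36 CPM in input.

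Because the pulldown takes RNA on ribosomes, the sequence around the start codon is shown for each gene, from the GENCODE M21 transcript used here on GRCm38. Each line holds 30 bases of the mRNA strand, and capitals mark the start codon.
Atg7: agaacagtagccATGggggaccctggactg
Kalrn: gggcagccataaATGgttttatctggatct
Ubr3: tgagctctcatcATGgcggcggcggcggcc
Sh2d3c: tgtgatcacgggATGactgcagtgggccga
The bases usually compared at a start codon are a purine at the third base before it and a G directly after it. Atg7 and Ubr3 had both, Sh2d3c had the purine and not the G, and Kalrn had the G and not the purine. Of 14048 genes with such a sequence, 86.4% had the purine, 52.4% had the G and 45.2% had both. The untranslated leaders before the start codon were short in these transcripts, 73 bases in Atg7, 24 in Kalrn, 49 in Ubr3 and 57 in Sh2d3c. These lengths stood at percentiles 19.0, 5.5, 11.9 and 14.1 of 14582 genes. The transcripts were picked by annotation rank and coding length, not by their level in these libraries. The Kalrn transcript also had only 21 untranslated bases after its coding part (percentile 2.2). It held 8940 bases, against 18660 exon bases of the gene, so its ends may be incomplete. Coding length stood at percentiles 71.7 for Atg7, 99.1 for Kalrn, 96.8 for Ubr3 and 72.0 for Sh2d3c, and GC content ran between percentile 18 (Ubr3, 44.34%) and percentile 87.6 (Sh2d3c, 58.0%).

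Atg7 had the highest ratio of the 4 in every phase. In IP it reached 923, 1206, 987, 1181 and 1056 CPM in healthy libraries, 786, 1118, 1038, 817 and 759.6 CPM in acute libraries, and 929.6, 801, 786 and 349.6 CPM in chronic libraries. In input it stood at 36.7, 41.1, 36.6, 37.6 and 42.8 CPM in healthy libraries, 37.7, 39.6, 37.8, 39.6 and 35.9 CPM in acute libraries, and 39.2, 35.3, 36 and 32.4 CPM in chronic libraries. Every IP library lay above every input library, and the lowest IP value, chronic replicate 4, was 8.17 times the highest input value. The log2 ratio of IP over input was 4.78 ± 0.18 (SE) in healthy mice, 4.57 ± 0.18 in the acute phase and 4.33 ± 0.20 in the chronic phase, or 27.5-fold, 23.7-fold and 20-fold. In such bulk RNA, a difference in the number of cells of a type and a difference in RNA per cell cannot be told apart.

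Kalrn gave the largest number of reads of the 4. In IP it reached 9304, 8340.2, 7584, 11560.1 and 5999 CPM in healthy libraries, 2325, 7154, 5795, 5410.4 and 4537 CPM in acute libraries, and 5148, 2836, 4654 and 2398 CPM in chronic libraries. In input it stood at 624, 645, 499.9, 664 and 600.2 CPM in healthy libraries, 644, 642, 621, 598 and 487 CPM in acute libraries, and 623, 588, 586 and 503 CPM in chronic libraries. The fractions did not overlap, and the lowest IP value was 3.50 times the highest input value. The log2 ratio was 3.82 ± 0.23 in healthy mice, 3.08 ± 0.22 in the acute phase and 2.71 ± 0.25 in the chronic phase, or 14.1-fold, 8.43-fold and 6.54-fold. This single gene took up to 1.07% of all counts of an IP library and at most 0.0698% of those of an input library.

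Ubr3 followed. Its IP levels were 1762, 1729, 1756, 1747 and 1059 CPM in healthy libraries, 814, 1728, 2084, 2148 and 1406 CPM in acute libraries, and 1228, 878, 1506 and 743 CPM in chronic libraries. Input levels were 174, 161, 155, 166 and 159.5 CPM in healthy libraries, 135, 139, 143, 131 and 125 CPM in acute libraries, and 155, 168, 157 and 140.4 CPM in chronic libraries. Healthy replicate 5, acute replicate 1 and chronic replicate 4 were the lowest IP libraries of their groups, and all lay above all inputs, the lowest by 4.27 times the highest input. The log2 ratio was 3.30 ± 0.20 in healthy mice, 3.60 ± 0.21 in the acute phase and 2.81 ± 0.22 in the chronic phase, or 9.87-fold, 12.2-fold and 7.02-fold.

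Sh2d3c was the least abundant of the 4. Its IP levels were 180.3, 237, 200.3, 256 and 289.6 CPM in healthy libraries, 251, 222, 417, 189.9 and 218 CPM in acute libraries, and 137, 199.7, 132 and 144 CPM in chronic libraries. Input levels were 31.6, 22.9, 26.1, 20.7 and 20.6 CPM in healthy libraries, 21.7, 23.8, 23.7, 23.8 and 24.2 CPM in acute libraries, and 23.1, 20.4, 20.7 and 19.5 CPM in chronic libraries. The fractions were again apart, with the lowest IP value 4.16 times the highest input value and the highest IP value in acute replicate 3. The log2 ratio was 3.25 ± 0.19 in healthy mice, 3.47 ± 0.19 in the acute phase and 2.87 ± 0.21 in the chronic phase, or 9.53-fold, 11.1-fold and 7.32-fold.

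**Figure D1:**
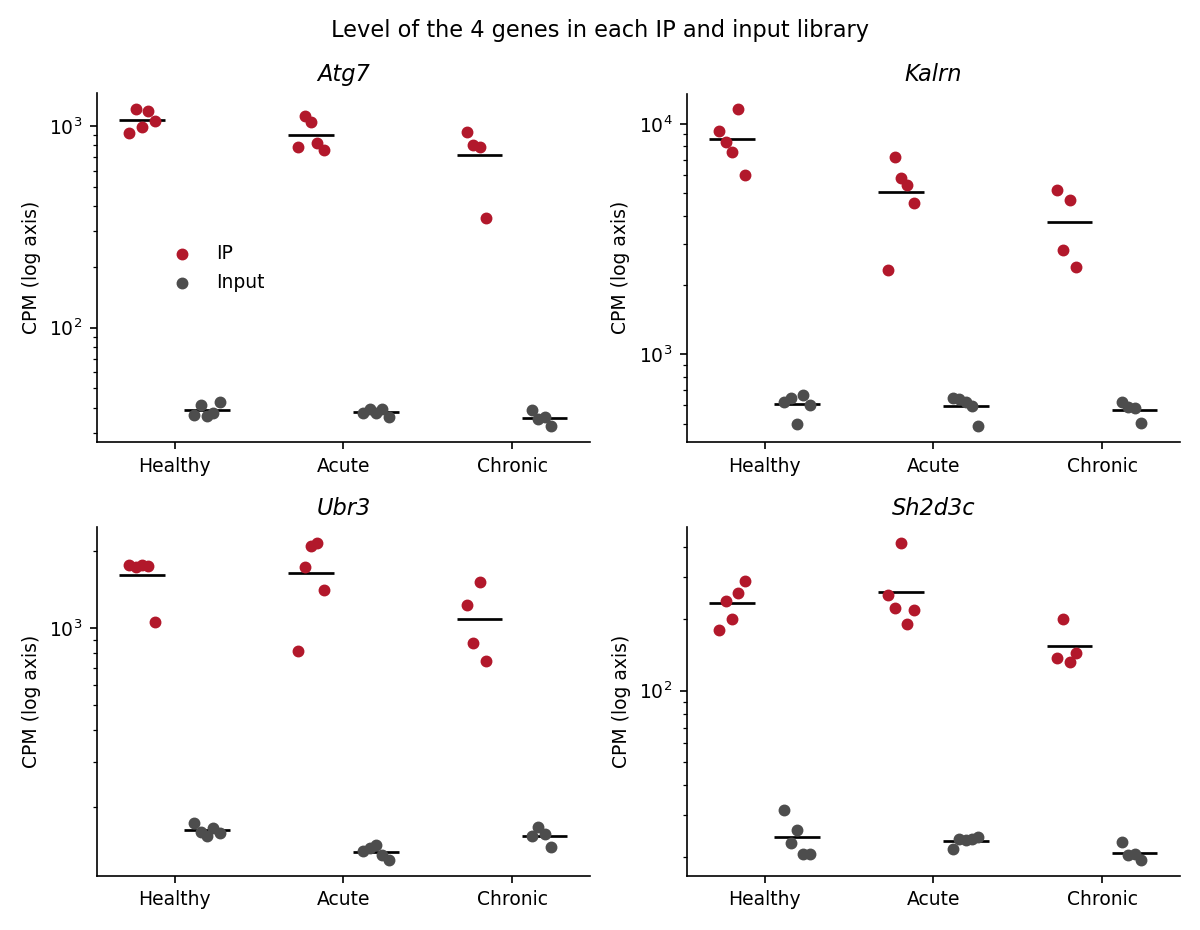
CPM of Atg7, Kalrn, Ubr3 and Sh2d3c (log axes, a scale per panel) by phase, with IP libraries in red and input libraries in grey; each point is 1 library and each line a group mean (n = 5, 5 and 4 per fraction). In each panel the IP points lie above all input points, by at least 3.50 times for Kalrn and 8.17 times for Atg7.

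Across all genes, 7.20% were called higher in IP in healthy mice, 8.56% in the acute phase and 8.74% in the chronic phase, against 14.4%, 10.1% and 20.0% called lower, and 776 genes were called higher in all 3 phases. With a mean log2 CPM of 1 or more, fractions that did not overlap in any phase and a symbol that is not provisional, 465 genes remained. Among these Atg7 ranked first in each phase, and the other members took the next 3 places in varying order: Kalrn was at rank 2, 4 and 4, Ubr3 at rank 3, 2 and 3, and Sh2d3c at rank 4, 3 and 2 in the healthy, acute and chronic phases. Just outside stood Yeats2, a histone acyl-lysine reader, with log2 ratios of 2.89, 2.44 and 2.58, and Zbtb48, a telomere-binding zinc finger protein, with 2.57, 2.43 and 2.65. Prpf8 (1.86, 1.83 and 2.32), Hspa1a (1.77, 2.07 and 1.93) and Fasn (1.76, 2.09 and 2.27), a spliceosome core protein, a heat shock protein and fatty acid synthase, came next. Just inside, the lowest member ratio was 2.71 ± 0.25, of Kalrn in the chronic phase, which lay within its standard error of Zbtb48 (2.65 ± 0.42) and Yeats2 (2.58 ± 0.29) in that phase. Without those conditions on level and overlap, some genes with few counts ranked above the members: over all 16580 genes, Atg7 was at rank 4, 3 and 4, Kalrn at 10, 21 and 34, Ubr3 at 17, 7 and 31, and Sh2d3c at 18, 10 and 26 in the healthy, acute and chronic phases.

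Layer 5 markers were the reference for what the tag should reach. The 4 genes stood far above them, but they had been chosen for the highest ratios. Of 10 markers listed, 5 were called higher in IP in healthy mice, 6 in the acute phase and 6 in the chronic phase, and none lower, with median log2 ratios of 0.66, 1.28 and 0.92, against −0.23, −0.36 and −0.32 over all genes. Fezf2, the transcription factor that specifies subcerebral projection neurons, had 1.87 ± 0.20, 2.07 ± 0.20 and 1.68 ± 0.22, each called (adjusted p = 7.35e-08, 5.37e-09 and 1.49e-06, edgeR's quasi-likelihood test with Benjamini-Hochberg adjustment). Colgalt2, the gene that drives the tag, averaged 68.4 ± 20.4 CPM in healthy IP and 53.1 ± 2.41 CPM in healthy input (SD, n = 5 each), a log2 ratio of 0.36 ± 0.16 that was not called (adjusted p = 0.13). In the acute phase (0.63 ± 0.17, adjusted p = 0.00643) and in the chronic phase (0.75 ± 0.19, adjusted p = 0.00295) it was. Bcl11b, another layer 5 transcription factor, was called in none of the phases. Endothelial markers also had positive medians, 1.27, 0.48 and 0.92, with 1 of 8 called higher in healthy mice and 0 in the other phases. They summed to 48.0 to 92.2 CPM in healthy IP and 12.5 to 24.9 CPM in healthy input. Medians of the astrocyte, oligodendrocyte, microglial, inhibitory neuron and leukocyte markers lay below that of all genes in every phase. Single markers went both ways. Of 8 astrocyte markers, 0, 1 and 2 were called higher and 2, 3 and 1 lower in the healthy, acute and chronic phases. The counts were 0, 0 and 2 higher and 5, 5 and 3 lower of 8 oligodendrocyte markers, and 0, 0 and 1 higher and 2, 4 and 2 lower of 8 inhibitory markers. Of 10 leukocyte markers only 6 were tested, with 0 called higher and 1, 1 and 4 lower, and no microglial marker was called.

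Per kilobase of exon, the members differed among themselves in order as well as in ratio. In input, levels as CPM per kb of exon (RPKM) ran Kalrn, Ubr3, Atg7, Sh2d3c from highest to lowest in 14 of 14 libraries, at means over all input libraries of 31.9, 15.5, 7.16 and 4.41 RPKM. In IP, Kalrn led in 13 of the 14 and Sh2d3c was last in all 14, while Atg7 stood above Ubr3 in 8 and below it in 6. In healthy mice, IP averaged 203 ± 23.2 RPKM for Atg7, 459 ± 111 for Kalrn, 166 ± 31.7 for Ubr3 and 44.4 ± 8.32 for Sh2d3c (SD, n = 5). Atg7 and Ubr3 thus differed by less than their combined spread there. In healthy input the same genes averaged 7.39 ± 0.529, 32.5 ± 3.44, 16.8 ± 0.742 and 4.66 ± 0.885 RPKM. By input level, Sh2d3c stood at percentile 50.4 of the genes tested, Atg7 at 61.0, Ubr3 at 77.3 and Kalrn at 88.2.

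Exon length was above the median of 3571 bases in each member. Sh2d3c was at percentile 71.3, Atg7 at 71.6, Ubr3 at 93.8 and Kalrn at 99.5. Over all genes, long exons did not go with a higher ratio: with all genes cut into 4 equal sets by length, 3.52% of the longest set were called higher in IP in all phases, against 5.89% in the next, 6.78% in the one after and 2.53% in the shortest. Input level moved with the calls more strongly, with 14.3%, 3.91%, 0.531% and 0.0241% called in 4 equal sets ordered by RPKM, highest first. Calls are harder to reach at low counts. Median log2 ratios, which need no call, were 0.13, −0.15, −0.45 and −1.12 in healthy mice in the same order. In the chronic phase they were −0.05, −0.15, −0.46 and −1.79. Kalrn and Ubr3 fell in the highest set and Atg7 and Sh2d3c in the one below it.

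**Figure D2:**
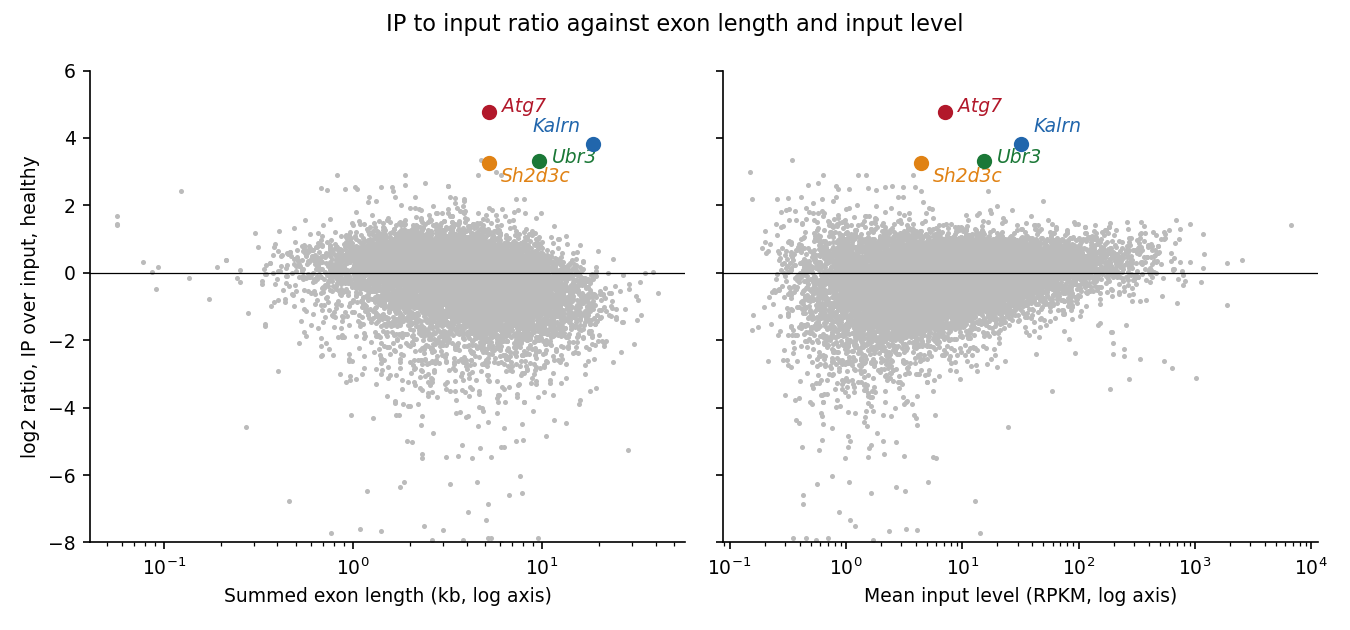
Log2 ratio of IP over input in healthy mice against exon length in kb (left) and mean input RPKM (right), both on log axes; each grey point is 1 of 12894 genes with a mean log2 CPM of 1 or more (36 lie below the axis), and the 4 members are coloured. The members, chosen for the highest ratios, lie at log2 ratios of 3.25 to 4.78, at the upper edge of the cloud, over a range of lengths and input levels.

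Together the 4 genes made up 0.821% to 1.37% of counts in healthy IP, 0.399% to 0.961% in acute IP and 0.332% to 0.694% in chronic IP, and 0.0712% to 0.0933% in any input library. IP levels also varied far more between libraries than input levels. The highest IP library held 3.45 times the lowest for Atg7, 4.97 times for Kalrn, 2.89 times for Ubr3 and 3.17 times for Sh2d3c. Over the input libraries these factors were 1.32, 1.36, 1.40 and 1.63. Among IP genes the members were nevertheless at the steady end: their coefficients of variation in the IP fit, 0.252 for Atg7, 0.31 for Kalrn, 0.286 for Ubr3 and 0.268 for Sh2d3c, lay at percentiles 6.8, 16.1, 12.4 and 9.3 of the genes tested. The rule asked for fractions that did not overlap, which favours genes with little spread. By mean RPKM in IP the members stood between percentiles 86.5 and 99.5, and the comparison was not matched for level. Depth ran from 6198088 to 21229550 counts and from 9566 to 17995 genes detected per IP library, and from 17848273 to 27915940 counts and 20714 to 21734 genes per input library. The 4 IP libraries with the fewest genes were acute replicates 3 and 1, chronic replicate 3 and healthy replicate 5.

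Phase was tested within each fraction and as the difference between fractions, 32 tests of members over 8 contrasts. The rule asked for a high ratio in all phases, which favours genes whose ratio varies little between them. In IP, no member was called between acute and healthy mice, between chronic and healthy mice or between chronic and acute mice, against 0.0647%, 0.187% and 0% of 13914 genes called in either direction by edgeR. At an unadjusted p under 0.05 there were 871, 1494 and 1145 of the 13914 genes in those contrasts. With no difference at all, a share of 0.05 of the genes would be expected there. In the last of them, where no gene was called by edgeR's quasi-likelihood test, other settings called up to 1762.

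Kalrn came closest to a call in chronic IP. It averaged 3759 ± 1346 CPM in chronic IP (SD, n = 4) and 8558 ± 2068 CPM in healthy IP (n = 5), and all 4 chronic libraries lay below all 5 healthy ones, as did those of 1.95% of genes. The log2 difference of −1.19 ± 0.29 did not pass (adjusted p = 0.113, edgeR's quasi-likelihood test with Benjamini-Hochberg adjustment). Without the 4 gene-poorest IP libraries it was −1.41 and passed (adjusted p = 0.034). Those left out included the lowest healthy library for Kalrn, replicate 5 (5999 CPM), and a high chronic library, replicate 3 (4654 CPM). Their removal widens the difference. Fits that left out 1 replicate at a time did not call it (edgeR adjusted p between 0.0929 and 0.327). In acute IP Kalrn averaged 5044 ± 1789 CPM (n = 5), and the difference from healthy IP, −0.77 ± 0.27, did not pass either (adjusted p = 0.509). Input held Kalrn at 575 ± 50.7 CPM in the chronic phase, 598 ± 64.8 CPM in the acute phase and 607 ± 64.2 CPM in healthy mice, with overlapping groups. The change of the ratio itself was −1.11 ± 0.31 between chronic and healthy mice (adjusted p = 0.062) and −0.74 ± 0.29 between acute and healthy mice (adjusted p = 0.233). In these tests 1.03% and 0.00603% of 16580 genes were called, and no member.

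The other members were also lower on average in chronic than in healthy IP, without passing. Chronic minus healthy IP differences were −0.58 ± 0.21 for Atg7 (adjusted p = 0.312), −0.57 ± 0.26 for Ubr3 (adjusted p = 0.421) and −0.61 ± 0.23 for Sh2d3c (adjusted p = 0.339) by the same edgeR test, and the groups overlapped for each. Without the 4 gene-poorest IP libraries the difference was −0.88 for Ubr3 (adjusted p = 0.0469). Those left out included its lowest healthy library, replicate 5 (1059 CPM), and its highest chronic library, replicate 3 (1506 CPM), which widens the difference. Acute minus healthy IP differences were −0.25 ± 0.20 for Atg7, 0.02 ± 0.24 for Ubr3 and 0.16 ± 0.22 for Sh2d3c, each with an edgeR adjusted p of 1. Chronic minus acute IP differences were −0.33 ± 0.21 for Atg7, −0.42 ± 0.29 for Kalrn, −0.59 ± 0.26 for Ubr3 and −0.77 ± 0.23 for Sh2d3c (adjusted p between 0.337 and 0.982). The phase contrasts share libraries and are not independent of each other.

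Summed levels of some cell type markers differed between the same groups of IP libraries. The summed level of the 8 astrocyte markers was 1479.9 to 3167 CPM in chronic IP and 839 to 1222 CPM in healthy IP, without overlap, while the 10 layer 5 markers summed to 1139 to 1721 CPM in chronic IP and 1253 to 1587 CPM in healthy IP. The 8 markers of inhibitory neurons summed to 1010 to 1370.4 CPM in chronic IP and 614 to 844 CPM in healthy IP, also without overlap. Abundant genes weigh most in such sums. Of single genes, 2.87% were higher in chronic IP without overlap. By edgeR, 1 of 8 astrocyte and 1 of 8 inhibitory markers were called higher, with median log2 differences of 1.12 and 0.37. Oligodendrocyte markers summed to 1227 to 3113 CPM in chronic IP and 1089.8 to 1411 CPM in healthy IP, and endothelial markers to 29.7 to 65.6 CPM in chronic IP and 48.0 to 92.2 CPM in healthy IP. The 8 microglial markers summed to 46.6 to 187 CPM in chronic IP and 20.8 to 53.7 CPM in healthy IP. The 10 leukocyte markers summed to at most 12.6 CPM in chronic IP and 17.6 CPM in healthy IP, and 8 and 7 of the 10 were at 0 in all libraries of these groups. The part of these markers in the lower chronic levels of Kalrn and the other members was not tested.

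Ubr3 in input was the only member that passed between phases. It averaged 135 ± 7.28 CPM in acute input and 163 ± 7.21 CPM in healthy input (SD, n = 5 each), and every acute library lay below every healthy one, as was the case for 5.57% of genes. The log2 difference was −0.28 ± 0.05 (adjusted p = 0.000348, edgeR's quasi-likelihood test with Benjamini-Hochberg adjustment), 1 of 4 members called where 8.59% of 16381 genes were called lower and 11.1% higher. Leaving out any single replicate kept the call (adjusted p between 0.000403 and 0.00168). In chronic input Ubr3 was at 155 ± 11.4 CPM (n = 4), higher than in acute input by 0.21 ± 0.05 (adjusted p = 0.016), in a contrast with 2.95% of genes called higher and 4.74% lower. The groups overlapped, and without chronic replicate 2 the difference was 0.16 (adjusted p = 0.0859). The difference between chronic and healthy input was not called (−0.07 ± 0.05, adjusted p = 0.581), where 2.74% of genes were, and no other member was called in input. When the IP and input libraries were fitted with 1 shared spread, both Ubr3 calls were lost at close to the same differences (adjusted p = 1), as were the input calls of the pathway genes named below: the common coefficient of variation was 0.71 in that fit and 0.101 over input libraries alone.

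In input, the summed levels of some markers differed between acute and healthy mice as well. Microglial markers summed to 104 to 161 CPM in acute input and 47.0 to 72.6 CPM in healthy input. Astrocyte markers summed to 1755 to 2415 CPM in acute input and 1226 to 1516 CPM in healthy input. Leukocyte markers summed to 15.4 to 25.2 CPM in acute input and 7.28 to 19.0 CPM in healthy input. Layer 5 markers summed to 709 to 787 CPM in acute input and 685 to 744 CPM in healthy input. Their part in the lower Ubr3 level was not tested.

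**Figure D3:**
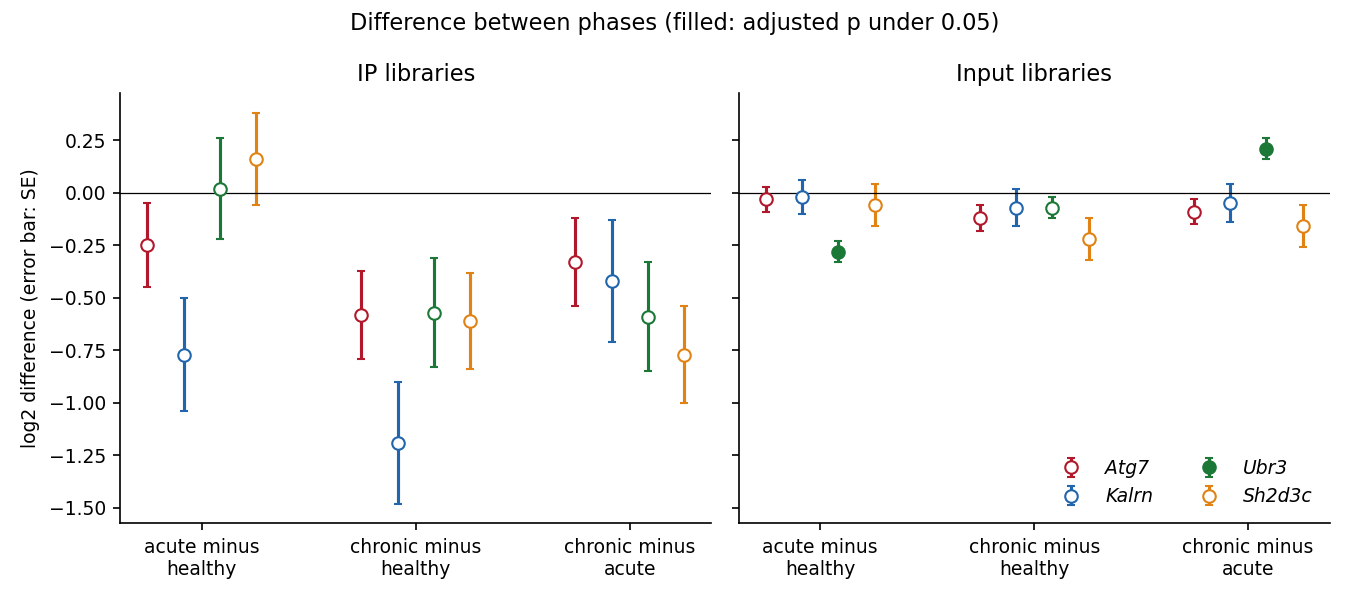
Log2 difference between phases for each member, with standard errors, in IP libraries (left) and input libraries (right); filled symbols passed an adjusted p of 0.05. The filled points are Ubr3 in input, −0.28 for acute minus healthy and 0.21 for chronic minus acute, and the chronic minus healthy IP differences are all negative, between −0.57 for Ubr3 and −1.19 for Kalrn.

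Between libraries, Kalrn and Ubr3 went together most closely. After the phase means were removed, their log2 CPM had a Pearson r of 0.882 over the 14 IP libraries and 0.705 over the 14 input libraries. Atg7 followed Kalrn with r = 0.599 in IP and 0.57 in input, whereas Sh2d3c had r between −0.19 and 0.26 with each of the others in IP. These are descriptions, since all genes of a library share its depth and its scaling. By the same measure in IP, the 12167 genes compared held closer matches: Sh3rf1 (0.917) and Cap1 (0.908) for Atg7, Dip2c (0.893) and Celf2 (0.890) for Kalrn, Wac (0.903) and Cavin2 (0.901) for Ubr3, and Fbrs (0.896) and Bfar (0.866) for Sh2d3c. Apart from Fbrs in the acute phase (1.27), none of these 8 had a log2 ratio above 0.70 in any phase. Over all 28 libraries the contrast of fractions dominates. The members were chosen on that contrast, so likeness among them there was favoured by the rule. Each member had at least 1 other member among its 3 most alike genes. The remaining ones were Dus3l for Atg7 (r = 0.982), Naa35 for Kalrn (0.967), Hnrnpa2b1 for Ubr3 (0.979), and Sqstm1 (0.973) and Gmpr (0.969) for Sh2d3c.

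Other genes of the 4 pathways had lower ratios than the members. The members had been chosen as the highest, so this gap was largely set by the rule and is no finding about the pathways. The highest mean log2 ratio among all listed pathway genes was that of the autophagy receptor Sqstm1, and the lists' medians lay between −0.44 and 0.01 in each phase, against −0.23, −0.36 and −0.32 for all genes.

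Of 36 autophagy genes, 5 were called higher in IP and 2 lower in healthy mice, 8 and 4 in the acute phase, and 7 and 6 in the chronic phase, with medians of −0.01, −0.02 and 0.01. Sqstm1 (p62), which carries ubiquitinated cargo to the autophagosome, averaged 1426 ± 159.8 CPM in healthy IP and 595 ± 6.98 CPM in healthy input (SD, n = 5 each). Its log2 ratio was 1.26 ± 0.10, 1.40 ± 0.10 and 1.2 ± 0.11, called in every phase (highest adjusted p = 1.75e-09, edgeR). Pik3c3, the lipid kinase Vps34 that starts the autophagosome membrane, had 0.42 ± 0.17 (adjusted p = 0.0818), 0.79 ± 0.17 (0.000988) and 1.61 ± 0.19 (2.87e-07) by the same test. Its ratio rose in the chronic phase against healthy mice by 1.19 ± 0.25 (edgeR adjusted p = 0.0234, in a test that called 0.633% of genes higher), a call that was lost without chronic replicate 2 (0.96, adjusted p = 0.0804) and in 5 other fits that left out 1 replicate. Without the 4 gene-poorest IP libraries the healthy ratio of Pik3c3 was also called (0.5, adjusted p = 0.0121). Atg4a, a protease that processes LC3-like proteins, was at −1.43 ± 1.49 in healthy mice and −0.49 ± 1.46 in the acute phase, neither called by edgeR (adjusted p = 0.619 and 0.867), though voom called both lower (−5.79 and −2.08, adjusted p = 0.000273 and 0.0159). It had 0 counts in all chronic IP libraries and 4.44 ± 0.519 CPM in chronic input, at least 81.9-fold lower in IP by a floor of 3 counts over the group. Floors cover counting error only. Wipi1, which binds the growing membrane, was at −1.69 ± 0.80, −1.84 ± 0.80 and −1.51 ± 0.88 and was not called, but was called lower in healthy mice without the 4 gene-poorest IP libraries (−1.98, adjusted p = 0.0125), and in all phases by voom (adjusted p = 0.0255, 0.00833 and 0.0324). In input, Map1lc3b, one of the LC3 proteins that Atg7 activates, rose to 375 ± 7.34 CPM in acute mice, against 330 ± 18.6 CPM in healthy mice (0.19 ± 0.04, adjusted p = 0.00329, edgeR), and in chronic input it was 0.18 ± 0.04 lower than in acute input (adjusted p = 0.0179). In acute against healthy input, 2 of the 36 were called higher and 1 lower, where 11.1% and 8.59% of all genes were.

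Of 20 genes around kalirin, among small GTPases, their effectors and synaptic proteins, 4 were called higher and 1 lower in healthy mice, 4 and 2 in the acute phase, and 2 and 3 in the chronic phase, with medians of −0.10, −0.02 and −0.15. Tiam2, another exchange factor for Rac1, was called higher in every phase, with log2 ratios of 0.83 ± 0.14, 0.77 ± 0.14 and 1.24 ± 0.15 (highest adjusted p = 0.000107, edgeR). Pak3, a kinase that Rac1 and Cdc42 activate, was called lower in every phase, with −0.98 ± 0.20, −1.26 ± 0.20 and −1.24 ± 0.22 (highest adjusted p = 0.000484, edgeR). Rhog, another GTPase that kalirin activates, was at −0.82 ± 0.80, −1.30 ± 0.81 and −1.65 ± 0.91 and not called. Without the 4 gene-poorest IP libraries it was called lower in the acute phase (−1.23, adjusted p = 0.0397) and in the chronic phase (−1.58, adjusted p = 0.00769). Disc1, a scaffold that binds kalirin, was at −2.74 ± 1.56 in healthy mice and 0.96 ± 1.45 in the acute phase, neither called by edgeR (adjusted p = 0.263 and 0.723), though voom called both lower (−3.62 and −3.87, adjusted p = 0.0199 and 0.000767). Acute IP libraries ran from 0 to 13.9 CPM (2.87 ± 6.17, SD, n = 5), so 1 library may set the sign there. Disc1 had 0 counts in all chronic IP libraries and 1.39 ± 0.469 CPM in chronic input, at least 25.8-fold lower in IP by the same floor. In acute against healthy input, 3 of the 20 were called higher and 4 lower, with a median of −0.01, the same as for all genes. Of all genes, 11.1% were called higher and 8.59% lower. Pak3 fell to 113 ± 8.34 CPM in acute input, against 146 ± 7.33 CPM in healthy input (−0.37 ± 0.06, adjusted p = 7.74e-05, edgeR), and Cdc42 fell by 0.19 on the log2 scale (adjusted p = 0.00102).

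Of 12 UBR box and N-degron genes, none was called higher in IP in any phase, and 2, 1 and 1 were called lower, with medians of −0.23, −0.17 and −0.21. Its relative Ubr2, which recognises N-terminal residues, had −0.95 ± 0.34 (adjusted p = 0.0455, edgeR), −0.56 ± 0.34 and −0.80 ± 0.38. Each of 5 fits without 1 healthy replicate lost the Ubr2 call (adjusted p between 0.0635 and 0.118), and without the 4 gene-poorest IP libraries its chronic ratio was called as well (−0.98, adjusted p = 0.00262). In acute input, where Ubr3 was lower than in healthy input, 5 of the 12 were also called lower and none higher, with a median of −0.11 against −0.01 for all genes, of which 8.59% were called lower. These were Ubr1, Fbxo11, Ube2b, Ate1 and Ubr7, and 0 of the 12 were called in the fit of all 28 libraries. The ligase Ubr1, of the same kind as Ubr2, averaged 23.9 ± 1.92 CPM in acute input and 30.5 ± 1.78 CPM in healthy input (−0.35 ± 0.08, adjusted p = 0.00277, edgeR), and rose in chronic input by 0.38 ± 0.08 over acute input (adjusted p = 0.00733). Ube2b, a conjugating enzyme that works with UBR ligases, differed by −0.15 ± 0.04 (adjusted p = 0.00526). Ubr4 rose in chronic IP, to 129.7 ± 57.6 CPM (n = 4) against 49.2 ± 12.7 CPM in healthy IP (n = 5), by 1.39 ± 0.28 (edgeR adjusted p = 0.0386, where 0.180% of genes were called higher). That call was lost in 7 of 9 fits without 1 replicate, with adjusted p up to 0.184 without chronic replicate 3, and without the 4 gene-poorest IP libraries (1.09, adjusted p = 0.0807). It was also lost with voom (adjusted p = 0.0722) and with the replicate block (edgeR, 0.0671).

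Of 13 genes of the NSP and Cas adaptor pathway, 12 were tested. In IP, 1 was called higher and 2 lower in healthy mice, 1 and 3 in the acute phase, and 1 and 1 in the chronic phase, with medians of −0.44, −0.20 and −0.27. Crk, an adaptor that binds phosphorylated Cas proteins, was called lower in every phase, with −0.60 ± 0.19, −1.04 ± 0.20 and −1.15 ± 0.22 (highest adjusted p = 0.0224, edgeR), though in healthy mice not in 3 of 5 fits without 1 replicate. Ptk2b (Pyk2), a tyrosine kinase that signals through Cas proteins, rose in chronic IP to 1343 ± 172 CPM (n = 4), against 734 ± 83.4 CPM in healthy IP (n = 5), without overlap, as was the case in this direction for 2.87% of genes. The log2 difference was 0.87 ± 0.13 (adjusted p = 0.00695), and its ratio rose by 0.79 ± 0.13 (adjusted p = 0.00261) by the same edgeR test, while Sh2d3c in the same IP libraries differed by −0.61 without passing. In acute input, Ptk2b rose by 0.19 ± 0.04 (adjusted p = 0.00242) and the kinase Src by 0.21 ± 0.04 (adjusted p = 0.0013), both by edgeR. Of the 12 tested, 3 were called higher there and 0 lower, where 11.1% and 8.59% of all genes were.

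**Figure D4:**
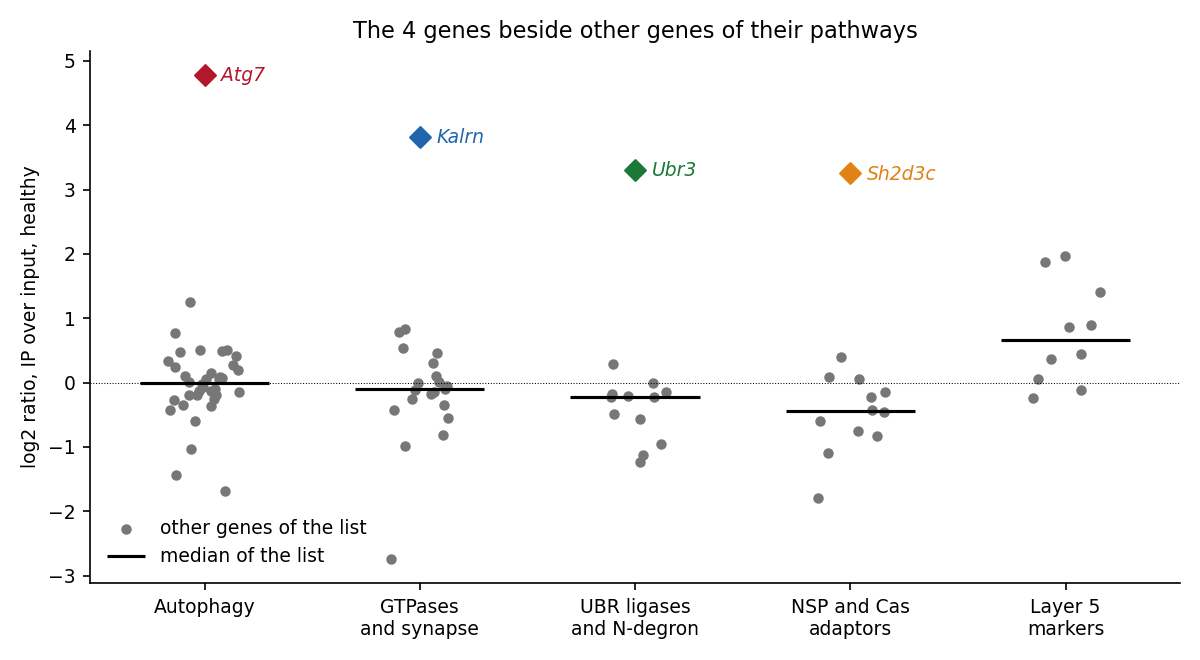
Log2 ratio of IP over input in healthy mice for the 4 members (diamonds) and for the other genes of 4 pathway lists and the layer 5 markers (grey points, 1 per gene), with list medians as lines. The members, chosen for the highest ratios, lie between 3.25 and 4.78, and the highest other pathway gene, Sqstm1, at 1.26.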

How the data were processed

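Per the labels, poly A RNA of IP and input fractions was sequenced in 28 libraries. The deposited values are counts per gene, made with featureCounts 1.5.1 over exons without strand (Ensembl release 79, GRCm38) per the file headers. The submitters' processing notes name STAR 2.4, DESeq2 and the builds GRCm38 and mm10. Multi-mapped reads and near-identical gene copies may be lost or split.

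The tests on counts used edgeR 4.0.16 (R 4.3.3): filterByExpr by group (minimum count 10, minimum total 15), TMM scaling, the robust quasi-likelihood test and Benjamini-Hochberg adjustment over all genes, called at an adjusted p under 0.05. IP and input libraries were fitted apart for phase contrasts (13914 and 16381 genes), and all 28 together for IP over input and its change (16580 genes). Levels are CPM on TMM-scaled sizes, as mean ± SD, and RPKM divides them by exon length in kb. Log CPM for correlations used a prior count of 2. Alternatives were DESeq2 1.42.0 size factors and Wald test, library totals, no filter, limma 3.58.1 voom with library weights, 1 fit of all 28 libraries, a block for the replicate number, and leaving out libraries. The pipeline was tested on simulated data. No 2 libraries of a group agreed within sampling noise (chi-square per degree of freedom 4.24 to 178 over 52 pairs). Figures were drawn with matplotlib 3.10.9.

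Members, lists, markers and alternatives were chosen with earlier results of these data known. Named genes were the members, the 5 next by their lowest ratio, the 3 and 2 most alike by Pearson r over all libraries and over IP libraries, and from each pathway list the 4 with the largest mean ratio in either direction plus up to 2 called per phase contrast. Some of these are given only in the counts. Ube2b, Ate1 and Ubr7 were named after their values were seen. Start codon contexts and transcript lengths come from GENCODE M21 and cover 87.9% of the genes tested.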

Additional observations from a re-analysis of the deposited data

Results flagged for a closer look

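Of 24 groups of libraries (4 genes in 6 groups), 3 held a library that lay far from the others of its group, and chance alone flags about 1 in 20. Ubr3 in healthy IP replicate 5 was at 1059 CPM, below the other healthy IP libraries, by a gap that made up 0.953 of the group's range. Sh2d3c in acute IP replicate 3 was at 417 CPM, above the other acute IP libraries, with a gap of 0.731 of the range. Sh2d3c in acute input replicate 1 was at 21.7 CPM, below the other acute input libraries, with a gap of 0.811 of the range. Both IP libraries are among the 4 with the fewest genes detected. The ratio of IP over input also changed between chronic and healthy mice, by a test of the change itself, for 4 genes of the members' pathways. In that test 0.633% of all 16580 genes were called higher. By list, 2 of 36 autophagy, 0 of 20 kalirin, 1 of 12 UBR and N-degron and 1 of 12 NSP and Cas genes were. The log2 changes were 1.19 for Pik3c3, 0.91 for Ambra1, a regulator of the autophagy kinase complex, 1.43 for Ubr4 and 0.79 for Ptk2b (edgeR adjusted p = 0.0234, 0.0406, 0.017 and 0.00261). With 1 replicate left out at a time, the call was lost in 6 of 9 fits for Pik3c3, 8 of 9 for Ambra1, 2 of 9 for Ubr4 and 0 of 9 for Ptk2b. Voom did not call Ambra1 (adjusted p = 0.178), Ubr4 (0.141) or Pik3c3 (0.0543). With the replicate block, edgeR did not call Ambra1 (0.164), Ubr4 (0.0845) or Pik3c3 (0.113). Without the filter the calls of Ambra1 (0.0804) and Pik3c3 (0.0522) were lost, and with library totals that of Ambra1 (0.0529). The cause was not tested.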

How the results depend on the processing

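All log2 ratios of the members moved by less than 1 SD between same-numbered IP and input pairs under every alternative run. Calls in IP depended on the setting. The fit of all 28 libraries shares 1 spread with input, so its IP calls rest in part on the smaller spread of input. Its common coefficient of variation was 0.71, against 1.06 over IP libraries alone. For Kalrn in chronic against healthy IP, the SE was 0.226 there and 0.292 in the IP fit, both at a difference of −1.19. Why the other settings differed was not tested. For chronic against healthy IP, where no member was called, the DESeq2 Wald test called 1 (Kalrn, adjusted p = 0.00479), a fit without the 4 gene-poorest IP libraries called 2, and 1 fit of all 28 libraries called 3 (Atg7, Kalrn and Sh2d3c, adjusted p = 0.0204, 0.00159 and 0.0274). For acute against healthy IP, voom called 1 (Kalrn, adjusted p = 0.0455) and the fit of all 28 libraries 1 (Kalrn, 0.0192). For chronic against acute IP, that fit called 1 (Sh2d3c, 0.0138). For the chronic change of the ratio, DESeq2 called 1 (Kalrn, 0.0157), voom 1 (Kalrn, 0.0482), and leaving out the 4 libraries 2 (Kalrn, 0.00309, and Ubr3, 0.00673). In both input contrasts that called Ubr3, the fit of all 28 libraries called 0, and for chronic against acute input the fits without 1 replicate called 0 to 1.

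Genes called in all over these settings ran from 1 to 1611 for acute IP (9 as reported), 15 to 2550 for chronic IP (26), 0 to 1762 for chronic against acute IP (0), 20 to 3819 for acute input (3230), 0 to 706 for chronic input (449), 0 to 1732 for chronic against acute input (1259), and 0 to 1364 and 28 to 1823 for the acute and chronic changes of the ratio (1 and 170). Of the 12 UBR box and N-degron genes, 0 to 5 were called lower in acute input. The log2 ratio of Disc1 in the acute phase, 0.96 and not called as reported, was −3.87 under voom (adjusted p = 0.000767). The acute IP libraries held it at 0 to 13.9 CPM.

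Deviations of libraries that share a number were weakly related at most (r between −0.109 and 0.173 over IP pairs, −0.09 and 0.109 over input pairs, and −0.009 and 0.143 between fractions), and nothing in the labels says that a number marks a shared animal, so the samples were treated as unpaired. With the replicate block, Ubr3 kept both input calls (−0.28, adjusted p = 0.000693, and 0.19, adjusted p = 0.0415), Kalrn in chronic IP stood at −1.26 (adjusted p = 0.235), and 15 genes were called in chronic IP and 28 in the chronic change of the ratio.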
